A study of Mus musculus with 19 samples.

Results

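The genes of innate pattern receptors, inflammasomes and programmed cell death were examined in RNA-seq libraries of whole mouse kidney. Gene symbols were matched to the names of the Toll-like receptors (Tlr) with the adaptor Myd88, the NOD-like receptors (Nod, Nlrc, Nlrp and Nlrx), the caspases (Casp), gasdermins (Gsdm), RIP kinases (Ripk) and Mlkl, the Bcl2 family with Bax, Bak1 and Mcl1, the inhibitors of apoptosis (Birc), and Aim2, Pycard, Fas, Fasl and Fadd. Of 95 matching symbols, 68 had at least 100 reads summed over 19 libraries, out of 55536 genes in the table. Another 27 fell short, 13 of them with 0 reads. The nearest gene inside the limit was Bcl2l15 with 108 reads and the nearest outside was Fasl with 99. Of the 68 genes, 67 had enough reads to be tested; Bcl2l15 did not. The 68 include 2 pseudogenes, Nlrp1c-ps and Nlrp5-ps.

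The series design names 7 libraries of UUO kidneys given vehicle, 8 of UUO kidneys given zalfermin and 4 of healthy kidneys given vehicle. UUO commonly stands for unilateral ureteral obstruction, in which a ligated ureter leads to tubular injury, inflammation and fibrosis. Zalfermin is a long-acting analogue of the hormone FGF21. In the sample labels, however, all 15 UUO libraries carry the condition MASH and the healthy ones are untreated, and the drug is a code that was read as zalfermin. Nothing used here states the strain, sex, age, dose, or duration of obstruction and of treatment. Nor is it stated that each library came from its own animal; p-values therefore reflect the spread among samples, part of which may be technical.

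Toll-like receptors sit in the plasma and endosomal membranes and bind microbial lipids, proteins and nucleic acids, or molecules released by damaged cells, and most of them signal through Myd88. NOD-like receptors and Aim2 do this in the cytosol, and several of them assemble inflammasomes with the adaptor Pycard (ASC) to activate caspase-1, which matures interleukin-1 beta and cuts gasdermin D into a membrane pore. Death receptors such as Fas act through Fadd and caspase-8, mitochondrial apoptosis is decided among the Bcl2 proteins, and RIPK1, RIPK3 and MLKL drive necroptosis, a lytic death. In the kidney these pathways are studied in tubular epithelium and in infiltrating leukocytes. In a whole-kidney library, fewer cells of a type and less RNA per cell cannot be told apart.

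The 19 libraries held 12209122 to 14844103 reads. The share of reads taken by the 68 genes was 0.113% to 0.126% in healthy kidneys, 0.177% to 0.215% with obstruction and vehicle, and 0.192% to 0.224% with zalfermin. Vehicle replicate 6 stood apart from its group, with 19788 genes detected, where the other 6 libraries of the group had 21374 to 22216. It had 1.10% of its reads from mitochondrially encoded genes, where they had 3.09% to 4.21%. Values without it are given where leaving it out changes the call of any of the 68 genes. Further pathway genes whose call it changes are named. Levels below are CPM, the reads of a gene scaled to the TMM-adjusted library total, listed for the 4 healthy libraries from lowest to highest and as a range with its median for the 7 vehicle and 8 zalfermin libraries. A gene is called higher or lower, or said to have risen or fallen, where the adjusted p (Benjamini-Hochberg over 16026 genes) of edgeR's quasi-likelihood test was under 0.05.

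Promoter windows of 300 bases (250 before to 50 after the start; RefSeq, GRCm38.p6) were found for 55 of the 68 genes. They are shown for Bcl2a1a, Bcl2a1b and Bcl2a1d, a trio of near-identical genes described below, for Nlrp6, which had a large fall, and for Myd88, the shared adaptor of the receptors that rose. Capitals mark a match to TGANTCA, the AP-1 type of motif, in the first 4 sequences and to a pair of GAAA with any 2 bases between them, an interferon regulatory factor type of motif, in the last.
Bcl2a1a (chr9:88956670-88956969, plus strand): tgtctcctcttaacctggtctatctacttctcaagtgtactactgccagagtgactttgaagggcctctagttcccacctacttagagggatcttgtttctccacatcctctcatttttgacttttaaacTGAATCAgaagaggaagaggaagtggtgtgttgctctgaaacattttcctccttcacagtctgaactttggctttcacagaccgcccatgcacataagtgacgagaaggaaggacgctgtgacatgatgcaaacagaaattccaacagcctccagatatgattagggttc
Bcl2a1b (chr9:89199023-89199322, plus strand): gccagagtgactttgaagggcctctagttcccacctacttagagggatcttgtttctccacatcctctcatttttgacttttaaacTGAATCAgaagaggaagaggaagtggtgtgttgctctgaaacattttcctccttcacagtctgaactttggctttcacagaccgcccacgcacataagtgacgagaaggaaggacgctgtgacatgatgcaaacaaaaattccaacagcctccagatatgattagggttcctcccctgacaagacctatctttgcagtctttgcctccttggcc
Bcl2a1d (chr9:88731801-88732100, minus strand): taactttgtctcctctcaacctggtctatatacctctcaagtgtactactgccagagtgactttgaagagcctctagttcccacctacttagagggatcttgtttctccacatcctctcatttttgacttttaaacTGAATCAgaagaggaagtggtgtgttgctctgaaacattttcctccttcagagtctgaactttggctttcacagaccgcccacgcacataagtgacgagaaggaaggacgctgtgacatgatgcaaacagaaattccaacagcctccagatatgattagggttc
Nlrp6 (chr7:140920652-140920951, plus strand): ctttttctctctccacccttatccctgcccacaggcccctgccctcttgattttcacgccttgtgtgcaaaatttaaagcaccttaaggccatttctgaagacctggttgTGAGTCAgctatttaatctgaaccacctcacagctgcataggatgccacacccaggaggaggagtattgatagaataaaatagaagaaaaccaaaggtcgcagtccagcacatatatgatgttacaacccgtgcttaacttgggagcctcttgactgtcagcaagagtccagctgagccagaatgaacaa
Myd88 (chr9:119339969-119340268, minus strand): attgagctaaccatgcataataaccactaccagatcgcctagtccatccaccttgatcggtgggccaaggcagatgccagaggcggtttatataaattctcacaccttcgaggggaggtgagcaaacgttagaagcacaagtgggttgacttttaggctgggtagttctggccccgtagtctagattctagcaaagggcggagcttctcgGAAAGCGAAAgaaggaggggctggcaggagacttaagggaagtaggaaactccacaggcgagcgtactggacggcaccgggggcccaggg

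In the Bcl2a1 windows the same TGAATCA stands in the same surroundings, and the aligned parts of the windows were 99.2% (Bcl2a1a and Bcl2a1b), 98.0% (Bcl2a1a and Bcl2a1d) and 98.8% (Bcl2a1b and Bcl2a1d) identical. Read on both strands, TGANTCA was found in the windows of 6 of the 55 genes (the 3 Bcl2a1 genes, Fas, Nlrp6 and Tlr9) and in 8.97% of all genes with a window. The spaced GAAA pair was found in 4 (Myd88, Ripk1, Tlr6 and Tlr11) and in 3.99% of all genes, and GGGA followed after any 2 bases by TTCC, an NF-kappaB type of motif, in 2 (Birc5 and Tlr3) and in 1.63% of all genes. No window of these genes held more than 1 of the 3 motifs. A match describes the letters of the window and shows no binding.

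By the series design, the comparison of vehicle-treated obstructed with healthy kidneys asked what obstruction changed. If the sample labels hold instead, condition (MASH) and vehicle both differ between these groups and cannot be told apart. Of the 67 tested genes, 46 were called higher (68.7%) and 8 lower (11.9%), and 13 were not called. Over all 16026 genes, 64.8% were called, 36.2% higher and 28.6% lower. Rises of at least 2-fold were called in 36 of the 67 genes, against 19.6% of all genes, and falls of at least 2-fold in 2, Tlr12 and Nlrp6, against 10.7%. The median log2 fold change of the 67 was 1.09, and that of all genes 0.09. Membership rested on reads summed over all libraries, most of them from obstructed kidneys. Genes low in healthy kidneys could therefore enter through the obstructed libraries, so the rule can favour rises. Gsdmc4, for example, had 2 reads over the healthy libraries out of 120 in all, and Bcl2a1d 1 out of 252. The size of this effect on the counts and medians was not tested. All 7 vehicle libraries lay above all 4 healthy ones for 37 of the genes (24.7% of all genes did) and below them for 6 (19.5% of all genes). Without vehicle replicate 6, 48 were called higher and 9 lower, and 70.1% of all genes were called. By role, the median was largest for the inflammasome adaptors and caspases (2.64) and the Toll-like receptors with Myd88 (2.39), and smallest for the death receptor genes Fas and Fadd (0.13) and the apoptotic caspases (0.28).

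**Figure D1:**
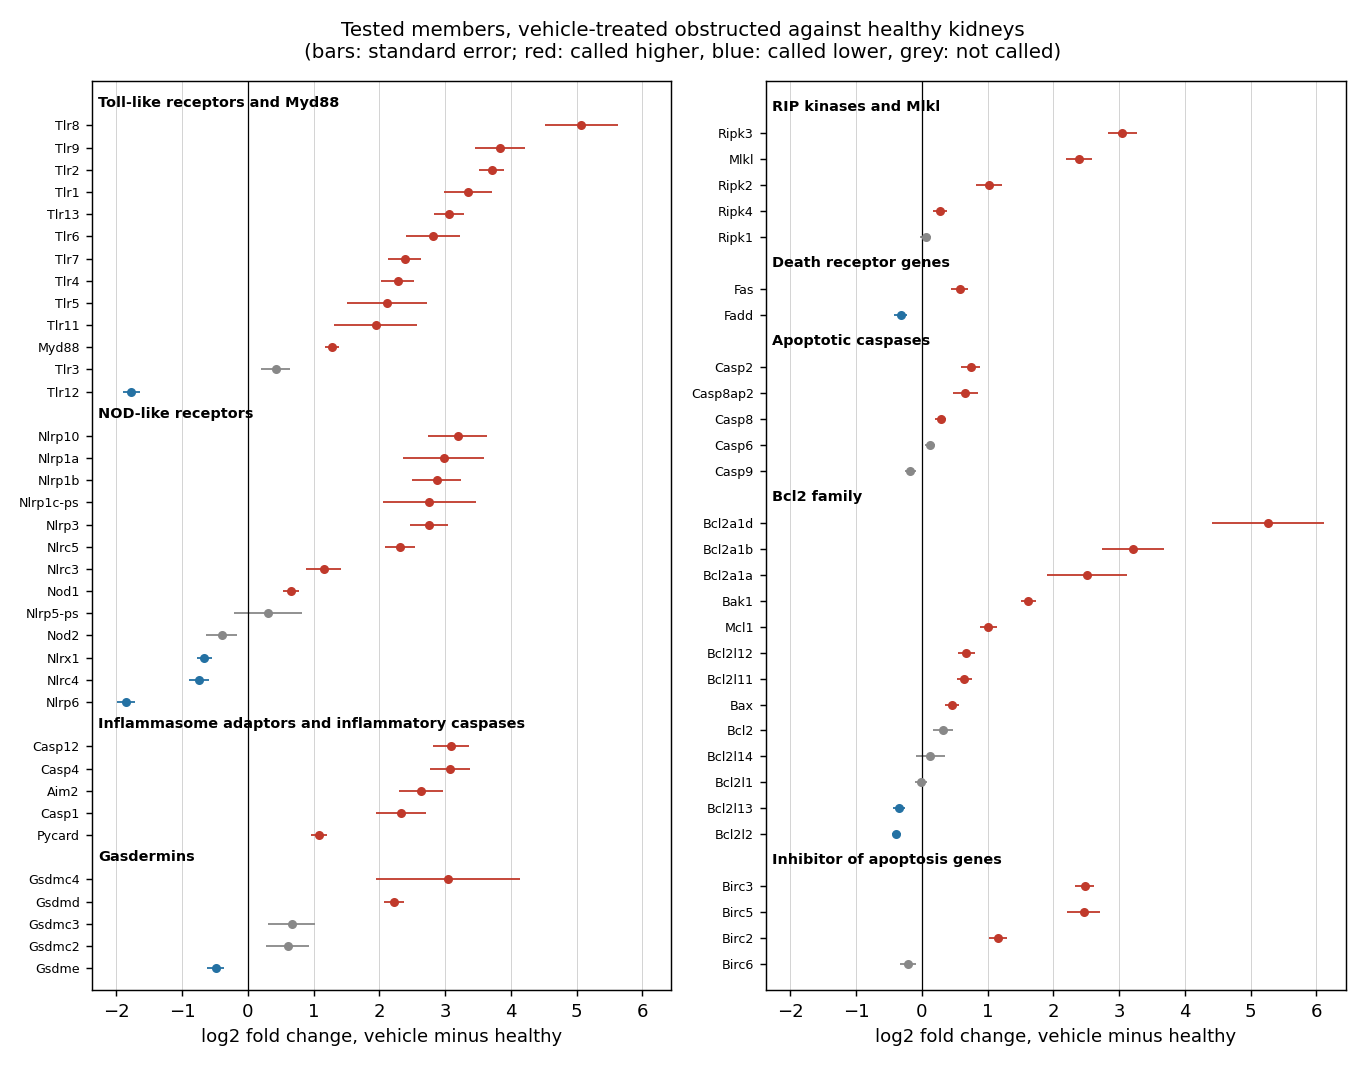
Log2 fold change of the tested genes between vehicle-treated obstructed (n = 7) and healthy (n = 4) kidneys, grouped by role; points are edgeR estimates, bars the standard error, red genes were called higher, blue lower and grey not called. Toll-like receptors reach from a fall in Tlr12 (log2 fold change -1.77) to a rise in Tlr8 (5.07), and the apoptotic caspases lie between -0.18 and 0.74.

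Markers of most cell types moved in the same comparison. All 12 macrophage markers rose, their summed level going from 162 to 201 CPM in healthy to 1160 to 1541 CPM in vehicle libraries, and 10 of 11 T and NK cell markers rose (5.34 to 8.08 CPM, then 22.4 to 35.8). Of 8 neutrophil markers, 4 were tested and rose (sum 1.35 to 1.69 CPM, then 8.75 to 23.98), and Ly6g, Mpo and Mmp8 were at 0 in healthy libraries. All 8 proximal tubule markers fell (15446 to 20252 CPM, then 2757 to 5745), as did all 6 of the thick limb and distal tubule (9877 to 11286 CPM, then 3462 to 5715). Vehicle replicate 6 held the highest tubule sums and the lowest T and NK cell sum of its group. All 5 fibroblast markers rose at least 2-fold (99 to 170 CPM, then 975 to 1825). All 7 proliferation markers rose (7.65 to 18.3 CPM, then 103 to 156). The other lists were mixed. Of 3 tested B cell markers 1 rose and 2 were not called (median log2 fold change -0.66). Of 5 endothelium markers 2 rose, 1 fell and 2 were not called (median -0.095). Tubule markers were abundant in every library, as the kidney label has it. The part of these shifts in the receptor, inflammasome and death gene results was not tested.

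Among the Toll-like receptors and Myd88, 11 of 13 genes rose, each at least 2-fold, Tlr12 fell and Tlr3 was not called (median log2 fold change 2.39). Over all genes, 19.6% were called at least 2-fold higher and 28.6% were called lower. Tlr2, the receptor of bacterial lipopeptides (chromosome 3, 83836272 to 83841767, minus strand, ENSMUSG00000027995, GENCODE annotation on GRCm38), stood at 2.55, 3.65, 3.73 and 4.72 CPM in the healthy libraries and 37.3 to 57.5 CPM (median 48.6) in the vehicle libraries. That is a rise of 13.1-fold (log2 fold change 3.71, SE 0.19, adjusted p = 3.42e-13), and the groups are far apart. Its partners Tlr1 and Tlr6, with which it pairs on the membrane, rose by log2 3.34 and 2.82, although 15.4% and 12.3% of their 50-base transcript windows occur in another gene, so that their reads are less certain; without healthy replicate 4 the log2 value of Tlr1 was 3.94.

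Tlr4, the receptor of bacterial endotoxin, had 2.26, 2.36, 3.37 and 4.27 CPM in healthy and 6.23 to 17.6 CPM (median 16) in vehicle libraries (log2 fold change 2.28, SE 0.25, adjusted p = 5.73e-08). The lowest vehicle value was that of replicate 6, with the next one well above it, and it too was above every healthy library. Tlr8, an endosomal receptor of RNA, was low in healthy kidneys, with 0.0843, 0.0888, 0.0982 and 0.267 CPM, and had 1.94 to 7.18 CPM (median 4.98) with obstruction (log2 fold change 5.07, SE 0.55, adjusted p = 3.99e-08), the steepest fitted rise among the receptors. The other nucleic acid receptors of the endosome rose as well, Tlr7 by log2 2.39, Tlr9 by 3.83 and Tlr13 by 3.07, and so did the flagellin receptor Tlr5, by 2.12. For Tlr5 the log2 value was 2.78 without healthy replicate 1 and 3.65 by voom. Tlr3, which binds double-stranded RNA, went from 17.9 ± 3.35 to 24.1 ± 7.50 CPM (mean ± SD, n = 4 and 7), with adjusted p = 0.0924; without vehicle replicate 6 it was called higher (log2 0.53, adjusted p = 0.000534).

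Tlr12, which with Tlr11 senses the profilin of protozoan parasites, went the other way. Per length it was the most abundant Tlr gene in healthy kidneys. It stood at 47.7, 52.6, 53.3 and 60.4 CPM there and at 12.1 to 21.6 CPM (median 15.2) in vehicle libraries, with no overlap (log2 fold change -1.77, SE 0.12, adjusted p = 3.89e-11; chromosome 4, 128615443 to 128618619, minus strand, ENSMUSG00000062545). Its partner Tlr11 was barely detected, with at most 0.590 CPM in healthy libraries, and rose by log2 1.94 (adjusted p = 0.0103) with overlapping groups. On the per-length scale (mean RPKM), Tlr12 ranked 6 of the 68 genes in healthy kidneys at 16.8 and 25 in vehicle kidneys at 4.93, while Tlr2 went from rank 36 at 1.22 to rank 8 at 16.1. Myd88, the adaptor, had 19.6, 21.4, 22.5 and 22.9 CPM in healthy and 44.9 to 65.7 CPM (median 52.2) in vehicle libraries (log2 fold change 1.28, SE 0.10, adjusted p = 2.05e-10). Part of its exons lie opposite those of Acaa1a, and the strand setting of the counting is not stated.

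Of 13 NOD-like receptor genes, 8 were called higher (61.5%), 3 lower (23.1%) and 2 not called (median log2 fold change 1.15). Over all genes, 36.2% were called higher and 28.6% lower. Nlrp3, the sensor of the best studied inflammasome, had 0.356, 0.506, 0.589 and 0.799 CPM in healthy kidneys and 2.48 to 5.06 CPM (median 3.88) with obstruction (log2 fold change 2.76, SE 0.29, adjusted p = 1.99e-08). Nlrp10, a NOD-like receptor without the leucine-rich repeats, had 0, 0.169, 0.178 and 0.444 CPM and 0.955 to 2.72 CPM (median 1.76), the largest rise of the group (log2 fold change 3.19, SE 0.45, adjusted p = 1.62e-06); without healthy replicate 2, its highest healthy library, the log2 value was 3.91. Neither gene had a vehicle library within the healthy range. Nlrp1a, Nlrp1b and the pseudogene Nlrp1c-ps rose by log2 2.98, 2.87 and 2.76, Nlrc3, which restrains T cell and innate signalling, by 1.15 and Nlrc5, an inducer of MHC class I genes, by 2.31. Without healthy replicate 4 the values were 3.57 for Nlrp1a and 3.36 for Nlrp1c-ps. The pseudogene Nlrp5-ps, with 46.6% of its 50-base transcript windows shared with another gene, was not called (adjusted p = 0.622).

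Nlrp6, Nlrc4 and Nlrx1 fell. Nlrp6, an epithelial NOD-like receptor (chromosome 7, 140920902 to 140929192, plus strand, ENSMUSG00000038745), stood at 154, 178, 179 and 193 CPM in healthy kidneys and 41.1 to 64.3 CPM (median 46.2) in vehicle kidneys (log2 fold change -1.85, SE 0.13, adjusted p = 5.74e-11). All vehicle libraries were below all healthy ones, and replicate 6 was the highest of them. Per length it ranked 2 of the 68 genes in healthy kidneys (mean RPKM 34.6), below Mcl1 alone, and 12 in vehicle kidneys (9.61). Nlrc4, the sensor of bacterial flagellin and secretion systems, fell to a mean of 7.25 ± 1.07 CPM with obstruction, where healthy kidneys had 12.1 ± 0.790 (log2 fold change -0.74, SE 0.15, adjusted p = 0.000144), and the mitochondrial Nlrx1 to 16.7 ± 2.52 CPM, where they had 26.5 ± 2.42 (log2 fold change -0.66, SE 0.11, adjusted p = 1.94e-05). Nod1, which binds bacterial peptidoglycan fragments, had 13.6, 15.9, 17.8 and 20.7 CPM against 23.8 to 32.7 CPM (median 26.4) and rose (log2 fold change 0.65, SE 0.12, adjusted p = 5.88e-05), while its relative Nod2 was at 3.70 ± 0.698 and 2.81 ± 0.757 CPM (adjusted p = 0.143).

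**Figure D2:**
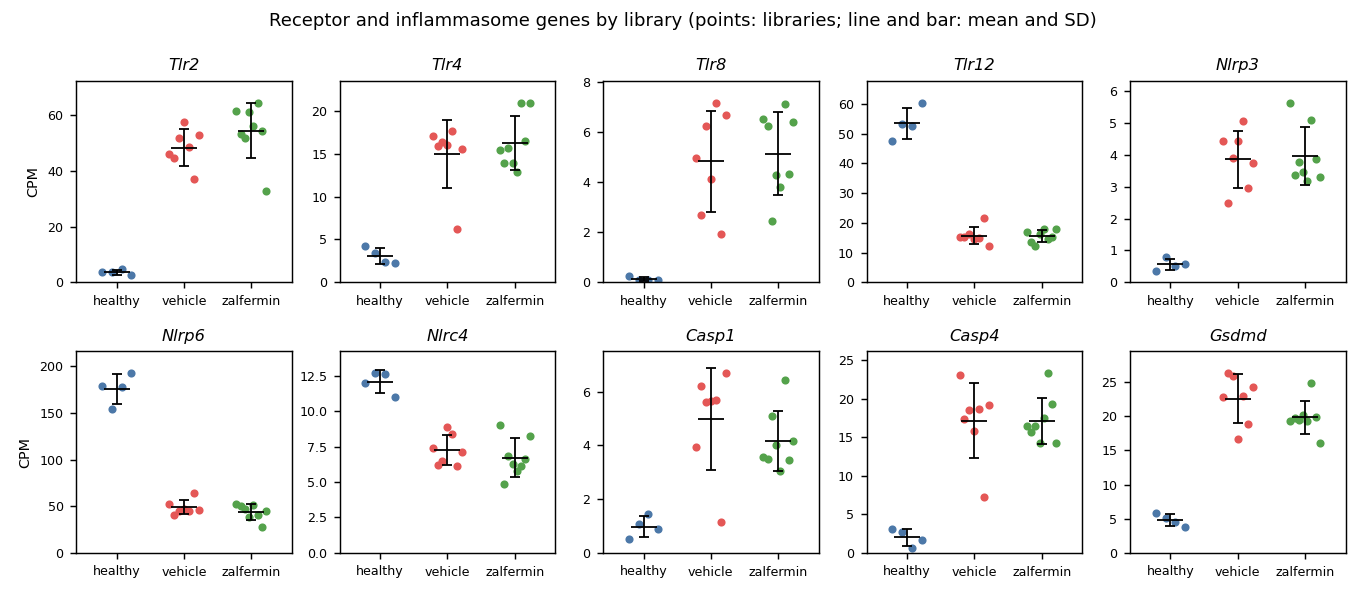
CPM of 10 receptor and inflammasome genes in each library; points are libraries (healthy n = 4, vehicle n = 7, zalfermin n = 8), lines and bars the mean and SD, and each panel has its own axis from 0. Tlr12, Nlrp6 and Nlrc4 are highest in healthy kidneys, the other 7 have their lowest mean there, and the lowest vehicle point of Tlr4, Casp1 and Casp4 is replicate 6.

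All 5 genes of inflammasome assembly rose at least 2-fold (median log2 fold change 2.64), where 19.6% of all genes did. Pycard, the adaptor that links sensor to caspase, had 11.7, 12.1, 13 and 13.2 CPM in healthy and 24.7 to 33.9 CPM (median 25.6) in vehicle libraries (log2 fold change 1.09, SE 0.12, adjusted p = 4.8e-08). Casp1 had 0.534, 0.884, 1.07 and 1.43 CPM against 1.14 to 6.69 CPM (median 5.63; log2 fold change 2.33, SE 0.38, adjusted p = 1.48e-05). Its ranges overlap through vehicle replicate 6 alone, at 1.14 CPM; without that library the log2 value was 2.45. Casp4, the mouse gene of caspase-11, which binds endotoxin in the cytosol, had 0.674, 1.67, 2.66 and 3.11 CPM against 7.23 to 23.1 CPM (median 18.6; log2 fold change 3.08, SE 0.31, adjusted p = 1.13e-08; log2 3.77 with voom and quality weights). Its neighbour Casp12 had 1.18, 2.04, 2.05 and 3.04 CPM against 6.89 to 20.6 CPM (median 18.7; log2 fold change 3.09, SE 0.27, adjusted p = 1.17e-09). Again replicate 6 was the lowest vehicle library for both, and still above every healthy library. The 3 caspase genes lie next to each other on chromosome 9, Casp1 at 5298517 to 5307265, Casp4 at 5308828 to 5336783 and Casp12 at 5345430 to 5373032. Aim2, the sensor of cytosolic DNA, rose by log2 2.64.

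The gasdermins form the pores of lytic death. Gsdmd, the target of the inflammatory caspases, had 3.83, 4.55, 5.15 and 5.78 CPM in healthy and 16.7 to 26.3 CPM (median 23) in vehicle libraries, with no overlap (log2 fold change 2.22, SE 0.15, adjusted p = 2.82e-11). Gsdme, another gasdermin, had 9.53, 10.1, 10.3 and 11.8 CPM in healthy and 5.88 to 8.97 CPM (median 7.25) in vehicle libraries, and fell (log2 fold change -0.49, SE 0.13, adjusted p = 0.00268). The Gsdmc genes share 39.0% to 51.3% of their 50-base transcript windows with other genes, so their reads cannot be assigned with certainty. Gsdmc4 had 2 reads over the healthy and 46 over the vehicle libraries, a ratio of 13.03 after scaling to the total reads of each group (95% interval of counting error 3.41 to 111). The edgeR fit gave log2 3.05 (adjusted p = 0.0185), and the call ended without healthy replicate 3 (adjusted p = 0.0559) or 4 (adjusted p = 0.0507); Gsdmc2 and Gsdmc3 were not called (adjusted p = 0.109 and 0.101), although Gsdmc2 was called higher without healthy replicate 1 (log2 0.88, adjusted p = 0.0406).

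In the necroptosis pathway, 4 of 5 genes of the RIP kinases and Mlkl rose, where 36.2% of all genes did. Ripk3, the kinase that phosphorylates MLKL, had 0.337, 0.786, 1.07 and 1.15 CPM in healthy and 5.70 to 7.90 CPM (median 7.04) in vehicle libraries (log2 fold change 3.05, SE 0.23, adjusted p = 8.96e-11). Mlkl, which forms the lytic pore, had 1.08, 1.51, 2.05 and 2.11 CPM and 7.16 to 10.4 CPM (median 9.04; log2 fold change 2.39, SE 0.20, adjusted p = 4.97e-10). Both were low in healthy kidneys and had every vehicle library above every healthy one. Ripk1, the upstream kinase, was abundant in both groups, 47.8, 48.2, 55 and 61.9 CPM in healthy and 47.5 to 61.8 CPM (median 56.3) in vehicle libraries, and was not called (log2 fold change 0.059, SE 0.086, adjusted p = 0.559). Ripk2, which acts below Nod1 and Nod2, had 3.73, 4.35, 6.14 and 6.49 CPM and 6.49 to 13 CPM (median 11.4; log2 fold change 1.02, SE 0.20, adjusted p = 9.61e-05). Ripk4, a kinase of epithelial differentiation, had 21.6, 21.6, 25.1 and 25.5 CPM and 23.8 to 36.2 CPM (median 27; log2 fold change 0.28, SE 0.10, adjusted p = 0.0255); this call ended under RLE scaling (adjusted p = 0.101), DESeq2 (0.118), voom (0.0531), a fit of the 2 groups alone (0.0566) and without vehicle replicate 4 (0.058), healthy replicate 1 (0.079) or healthy replicate 2 (0.0829).

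In the extrinsic route of apoptosis Fas rose and Fadd fell, each by less than 2-fold. Fas, the death receptor, had 8.90, 9.94, 10.2 and 10.6 CPM in healthy and 11.6 to 17.1 CPM (median 15.4) in vehicle libraries (log2 fold change 0.58, SE 0.13, adjusted p = 0.000463). Its adaptor Fadd had 24.6, 27.5, 27.5 and 28.7 CPM and 19.6 to 28.8 CPM (median 20.6; log2 fold change -0.32, SE 0.10, adjusted p = 0.00763), and vehicle replicate 6 was the highest of all 11 libraries. Among the apoptotic caspases Casp8, the initiator below death receptors, had 43.1, 44.8, 45.6 and 48.2 CPM against 46.7 to 63.4 CPM (median 53.5; log2 fold change 0.28, SE 0.082, adjusted p = 0.00451). Casp2, an initiator linked to DNA damage and cell division, had 15, 15.1, 18.9 and 22.1 CPM against 22 to 41.3 CPM (median 30.3; log2 fold change 0.74, SE 0.14, adjusted p = 7.09e-05). Casp8ap2, which binds caspase-8, rose by log2 0.66, and Casp6 was not called (adjusted p = 0.144). Casp9, the initiator of the mitochondrial route, was at 44.8 ± 2.05 and 39.7 ± 4.49 CPM (adjusted p = 0.0599); it was called lower without vehicle replicate 6 (adjusted p = 0.000651), under RLE scaling (0.00624), DESeq2 (0.00496) and voom (0.00284).

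In the Bcl2 family, 8 of 13 tested genes rose, 2 fell and 3 were not called (median log2 fold change 0.65). Over all genes, 36.2% rose and 28.6% fell. Genes for and against death were among the rises of the family. Of the pore-forming effectors, Bak1 had 13.3, 16, 16.4 and 17.9 CPM in healthy and 40 to 60.6 CPM (median 47.9) in vehicle libraries (log2 fold change 1.62, SE 0.11, adjusted p = 2.12e-11), with no overlap. Its neighbour in function, Bax, had 25.3, 27.1, 32.2 and 34.5 CPM and 32.9 to 50.6 CPM (median 39.2; log2 fold change 0.46, SE 0.11, adjusted p = 0.00107), a rise of 1.38-fold against 3.07-fold for Bak1. Some exons of Bak1 lie opposite those of Ggnbp1. Bcl2l11 (Bim), a sensor that triggers the effectors, rose by log2 0.65.

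Among the protectors, Mcl1 was per length the most abundant of the 68 genes in every group (mean RPKM 44.5 healthy, 89.8 vehicle, 84.5 zalfermin). It had 143, 149, 156 and 161 CPM in healthy and 178 to 336 CPM (median 325) in vehicle libraries (log2 fold change 1.01, SE 0.13, adjusted p = 3.07e-07), replicate 6 being the lowest vehicle library and still above the healthy range. Bcl2 itself had 19.4, 23.4, 23.4 and 25 CPM against 15.5 to 34 CPM (median 29.3) and was not called (log2 fold change 0.32, SE 0.15, adjusted p = 0.0644); it was called higher without replicate 6 (log2 0.38, adjusted p = 0.00154), under upper-quartile scaling (adjusted p = 0.0348) and by voom (0.000982). Bcl2l1 (Bcl-xL) had 118, 129.7, 145 and 151 CPM against 118 to 153 CPM (median 130.4; log2 fold change -0.012, SE 0.089, adjusted p = 0.913) and was not called. Bcl2l2 (Bcl-w) had 76.3, 77.4, 77.4 and 78.4 CPM in healthy and 54.2 to 68.7 CPM (median 57.3) in vehicle libraries and fell, with no overlap (log2 fold change -0.39, SE 0.074, adjusted p = 8.75e-05). Bcl2l13, some of whose exons lie opposite those of Bid, fell by 0.35 on the log2 scale, Bcl2l12 rose by 0.68 and Bcl2l14 was not called (adjusted p = 0.626).

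Bcl2a1a, Bcl2a1b and Bcl2a1d encode copies of the leukocyte protector A1, and their promoters are printed above. They had at most 0.445 CPM in any healthy library, and Bcl2a1d had 1 read over the 4 of them against 127 over the vehicle libraries, a ratio of 71.9 after the same scaling (95% interval of counting error 12.7 to 2863). The edgeR fit gave Bcl2a1d log2 5.27, and 7.08 without healthy replicate 2, which held that read. Bcl2a1a rose by log2 2.52 and Bcl2a1b by 3.21; for Bcl2a1a the value was 3.44 without healthy replicate 1 and 3.32 by voom. Between 69.0% and 79.5% of their 50-base transcript windows occur in another gene, so the counts of the single copies are uncertain.

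The per-library log2 ratio of Bax to Bcl2 reads, a common index of the balance between effector and protector, averaged 0.38 ± 0.19 over the 4 healthy libraries, 0.55 ± 0.56 over the 7 vehicle libraries and 0.39 ± 0.18 over the 8 zalfermin libraries (SD). No difference passed a two-sided exact permutation test over libraries (vehicle minus healthy 0.17, p = 0.691; zalfermin minus vehicle -0.16, p = 0.560; zalfermin minus healthy 0.010, p = 0.905; adjusted p = 0.905 for each of the 3). Vehicle replicate 6 held the highest ratio, 1.71. Without it the first of these differences was -0.024 and the second 0.034.

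Of the inhibitors of apoptosis, 3 of 4 tested genes rose at least 2-fold (median log2 fold change 1.81), where 19.6% of all genes did. Birc3 (cIAP2), a ubiquitin ligase of TNF receptor complexes and an NF-kappaB target gene, had 10.7, 11.4, 13.7 and 14.2 CPM in healthy and 56.4 to 90.2 CPM (median 73.2) in vehicle libraries (log2 fold change 2.48, SE 0.15, adjusted p = 2.63e-12; chromosome 9, 7848699 to 7873186, minus strand, ENSMUSG00000032000). Its close relative Birc2 (cIAP1) had 40.8, 42.3, 44.1 and 46.5 CPM and 60.3 to 117 CPM (median 103; log2 fold change 1.16, SE 0.14, adjusted p = 2.44e-07). Birc5 (survivin), which serves cell division as well as survival, had 0.890, 1.10, 1.69 and 1.87 CPM and 5.60 to 10.3 CPM (median 7.52; log2 fold change 2.46, SE 0.25, adjusted p = 1.62e-08). Every vehicle library lay above every healthy one for these 3 genes. Birc6 was not called (adjusted p = 0.153), and was called lower without healthy replicate 2 (log2 -0.30, adjusted p = 0.0484).

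**Figure D3:**
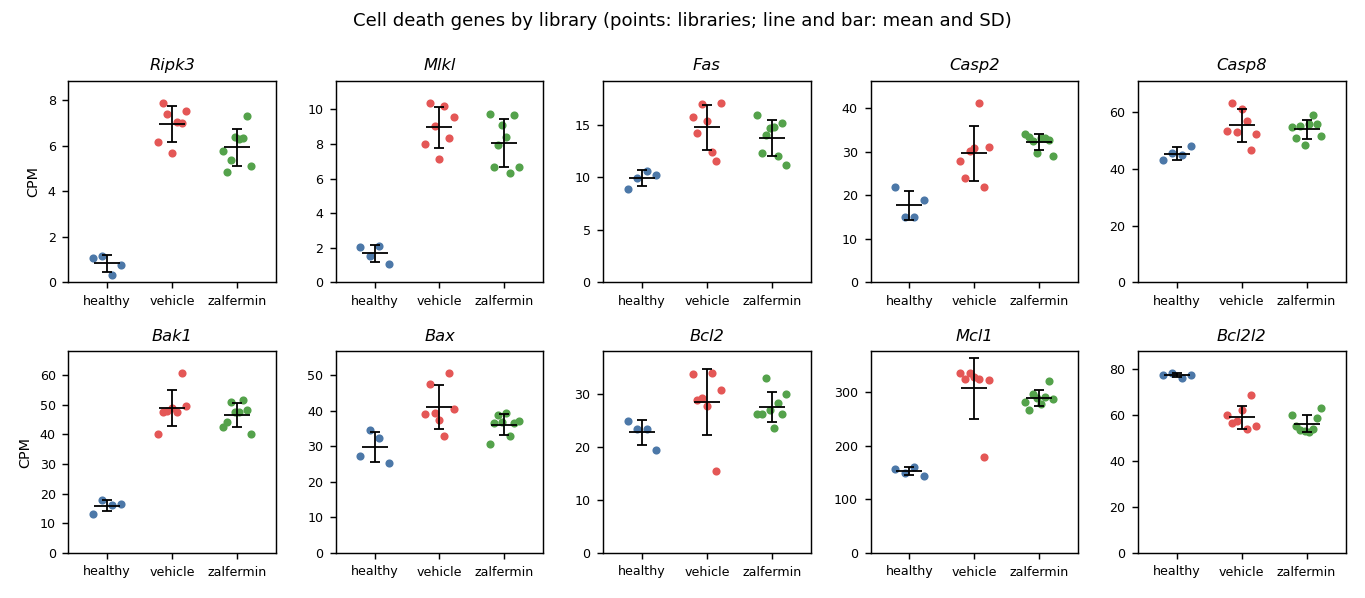
CPM of 10 cell death genes in each library; points are libraries (healthy n = 4, vehicle n = 7, zalfermin n = 8), lines and bars the mean and SD, and each panel has its own axis from 0. Ripk3, Mlkl, Fas, Bak1 and Mcl1 have all vehicle libraries above the healthy range, Bcl2l2 has them below it, and Casp2, Casp8, Bax and Bcl2 overlap.

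Further genes of these pathways, in 6 lists, gave 72 calls among 98 tested genes with obstruction, where 64.8% of all genes were called (36.2% higher and 28.6% lower). Leaving out vehicle replicate 6 gave 78 calls, where 70.1% of all genes were called. Ly96, Xiap and Il18 were then newly called higher and Mavs, Tab1, Sharpin and Tollip newly lower, and the call of Parp1 ended. Of co-receptors and signalling genes of the Toll-like receptors, 11 of 23 rose, 2 fell and 10 were not called (median log2 fold change 0.60). The smallest p-values among the rises were those of Cd14, which hands endotoxin to TLR4, with 4.71, 5.06, 5.40 and 6.40 CPM in healthy and 62.3 to 87.4 CPM (median 80) in vehicle libraries (log2 3.85, adjusted p = 9.14e-15), and of the endotoxin carrier Lbp, with 3.04, 3.46, 4.63 and 5.24 CPM and 31.9 to 44.7 CPM (median 35.3; log2 3.17, adjusted p = 1.56e-13). The largest fitted rise of the list was that of the adaptor Ticam2 (log2 5.25; 6.59 without healthy replicate 2), which had 4 reads over the healthy libraries and is named here after its values were seen. The kinases Irak1 and Irak2 fell, by 0.31 and 0.32 on the log2 scale.

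Of 17 inflammasome partners and products, 13 rose and 3 fell (median log2 fold change 2.40), where 36.2% of all genes rose and 28.6% fell. Il1b, the cytokine that caspase-1 matures, had 0.927, 0.977, 1.25 and 1.67 CPM in healthy and 7.93 to 12.2 CPM (median 9.67) in vehicle libraries (log2 3.04, adjusted p = 3.31e-10). Il1rn, its receptor antagonist, had 0.169, 0.178, 0.295 and 0.355 CPM and 16.9 to 21.7 CPM (median 18.6; log2 6.21, adjusted p = 1.07e-12), and the channel gene Panx1 had 0.927, 1.25, 1.47 and 1.51 CPM and 10.7 to 14.1 CPM (median 12.5; log2 3.27, adjusted p = 1.58e-12). Il18, the other product of caspase-1, was not called (log2 0.55, adjusted p = 0.112); it was called higher without vehicle replicate 6 (log2 0.66, adjusted p = 0.0199) and by voom (log2 0.90, adjusted p = 0.00265). Nek7, a partner of NLRP3, the membrane rupture gene Ninj1 and the deubiquitinase gene Brcc3 fell, by 0.43, 0.70 and 0.63 on the log2 scale.

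Of 11 genes of cytosolic nucleic acid sensing, 8 rose and 0 fell (median log2 fold change 1.24), and 3 were not called. For this list and the next, the shares over all genes were 36.2% higher and 28.6% lower. Tmem173 (STING) had 2.75, 2.85, 2.94 and 2.95 CPM in healthy and 36.7 to 45.5 CPM (median 38.9) in vehicle libraries (log2 3.79, adjusted p = 1.14e-14), and Ddx58 (RIG-I) 20.7, 24.9, 27.3 and 27.8 CPM and 55.9 to 90.6 CPM (median 83.7; log2 1.63, adjusted p = 1.84e-10). Of 11 C-type lectin receptors and adaptors, 10 rose (median log2 fold change 3.03, the same with Clec4e, at 0 reads in healthy libraries, set to its lower bound). The adaptor chain Fcer1g had 3.37, 4.71, 4.81 and 5.68 CPM and 36.2 to 49.7 CPM (median 40.7; log2 3.15), and the kinase Syk 1.87, 2.19, 2.40 and 2.57 CPM and 19.9 to 30.1 CPM (median 25.6; log2 3.48).

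Of 17 genes of death ligands, receptors and their complexes, 11 rose (64.7%, against 36.2% of all genes) and 6 were not called (median log2 fold change 0.91). Tnfrsf1b, a TNF receptor, had 3.83, 4.38, 5.78 and 6.22 CPM in healthy and 36.1 to 46.8 CPM (median 42.7) in vehicle libraries (log2 3.06), and its adaptor Traf1 1.96, 3.29, 3.34 and 3.37 CPM and 18.6 to 29.7 CPM (median 23.1; log2 3.01). Of the mitochondrial partners 8 of 19 were higher (42.1%), 6 lower (31.6%) and 5 not called (median log2 fold change 0.16), shares near those of all genes (36.2% and 28.6%). Apaf1, the scaffold that activates caspase-9, had 5.50, 7.55, 8.01 and 8.98 CPM and 20.5 to 31.6 CPM (median 28.8; log2 1.87, adjusted p = 4.63e-10). The mitochondrial proteins Aifm1, Cycs and Endog, which have roles in respiration or mitochondrial DNA beside those in death, fell. Aifm1 had 218, 244, 248 and 256 CPM in healthy and 85.2 to 109 CPM (median 100.1) in vehicle libraries (log2 -1.32), and Cycs fell by 1.47 and Endog by 1.20 on the log2 scale.

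The comparison of zalfermin with vehicle in obstructed kidneys asked what the drug changed. None of the 67 genes was called by edgeR, 0 higher and 0 lower, where 1.81% of all genes were called (0.867% higher and 0.942% lower). At unadjusted p under 0.05 there were 7 of them (10.4%), 4 higher and 3 lower, against 15.5% of all genes (7.94% higher and 7.53% lower). DESeq2 called 1 (Nod1 lower, adjusted p = 0.0398), and 588 of 31221 genes in all (1.88%). That total was not cut by the read filter and includes genes with few reads, so its share cannot be set beside those of edgeR and voom. With voom and quality weights 5 were called (Ripk4 and Birc2 higher, Casp12, Mcl1 and Ripk2 lower), and 7.16% of all 16026 genes. Fitted log2 fold changes of the 67 ran from -0.33 to 0.57 with a median of -0.0097, 32 positive and 35 negative, and for none of them did the zalfermin libraries all lie on one side of the vehicle libraries (0.349% of all genes were separated upward and 0.256% downward).

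**Figure D4:**
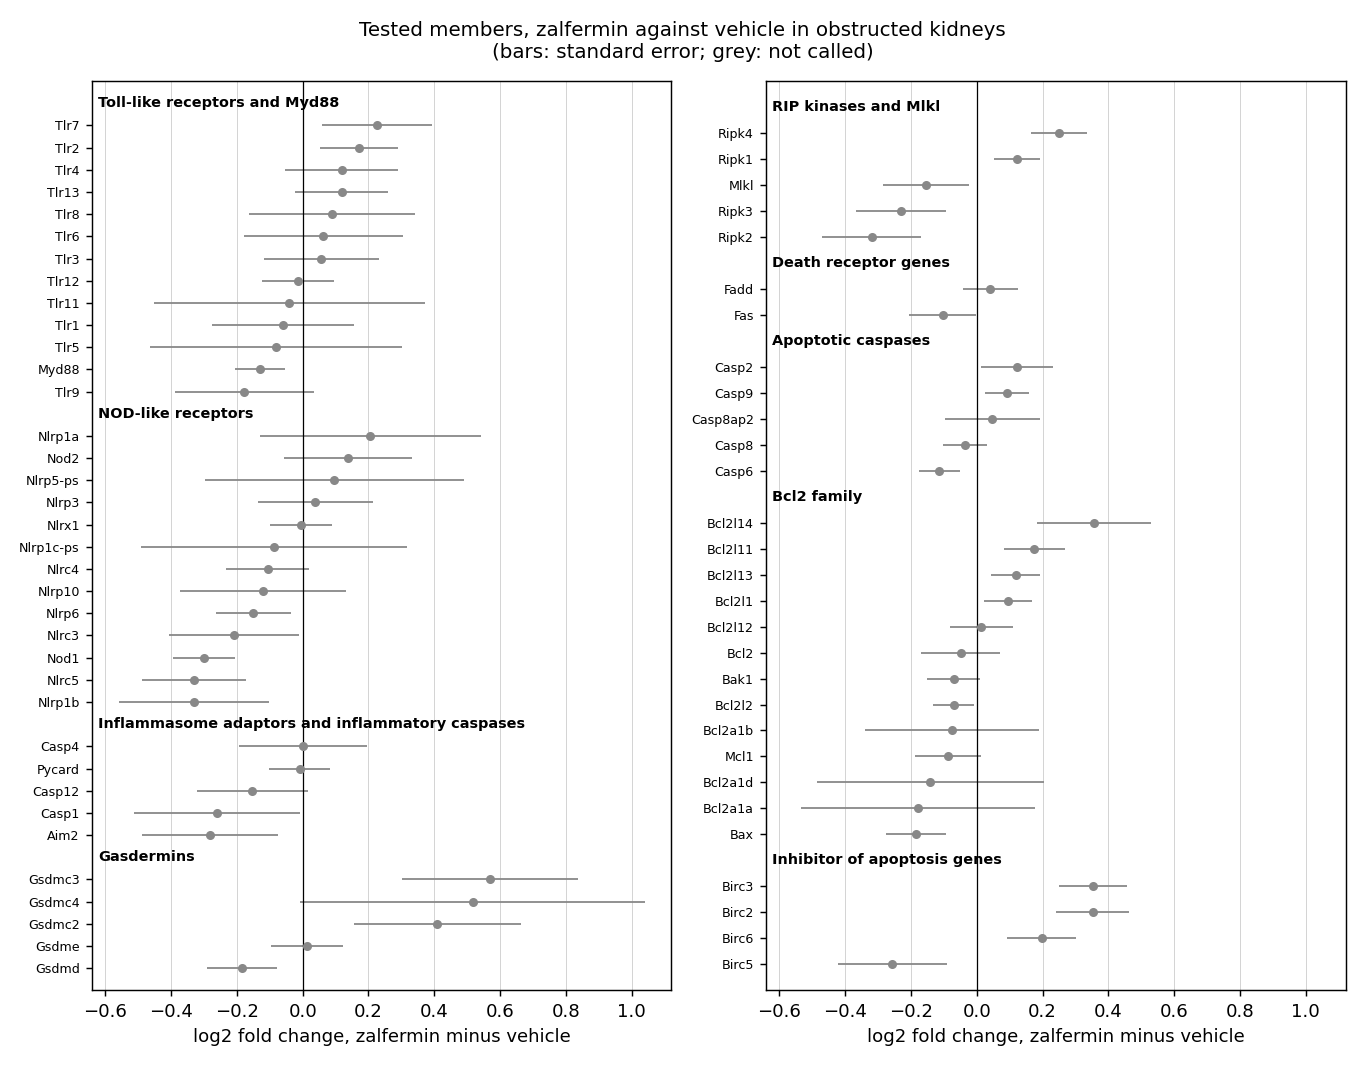
Log2 fold change of the tested genes between zalfermin (n = 8) and vehicle (n = 7) in obstructed kidneys, grouped by role; points are edgeR estimates and bars the standard error. No gene was called, and the estimates lie between -0.33 and 0.57.

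The 2 smallest p belonged to Birc3 and Birc2. Birc3 had 56.4 to 90.2 CPM (median 73.2) in vehicle and 74.8 to 106 CPM (median 87.9) in zalfermin libraries (log2 0.35, SE 0.10, unadjusted p = 0.00238, adjusted p = 0.0819), and Birc2 had 60.3 to 117 CPM (median 103) and 103 to 146 CPM (median 125; log2 0.35, SE 0.11, adjusted p = 0.112). Vehicle replicate 6 was the lowest library for both. The ranges overlap, and Birc3 was called higher without vehicle replicate 3 (adjusted p = 0.0321).

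Nod1 had 23.8 to 32.7 CPM (median 26.4) in vehicle and 18.3 to 25.8 CPM (median 22.1) in zalfermin libraries (log2 -0.30, SE 0.10, adjusted p = 0.117). Ripk2, the kinase below it, had 6.49 to 13 CPM (median 11.4) and 7.23 to 11.3 CPM (median 8.40; log2 -0.32, adjusted p = 0.308). Ripk4 had 23.8 to 36.2 CPM (median 27) and 30.1 to 37.5 CPM (median 33.5; log2 0.25, adjusted p = 0.142) and was called higher without vehicle replicate 4 (adjusted p = 0.0335). Gsdmc3 had 3.46 to 10.7 CPM (median 6.30) and 3.51 to 17.5 CPM (median 10.1; log2 0.57, adjusted p = 0.309). For each of these 4 genes the vehicle and zalfermin ranges overlapped.

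Genes with large differences from healthy were not called between the obstructed groups. Tlr2 had 32.9 to 64.6 CPM (median 55.3) in zalfermin libraries (log2 0.17 against vehicle, SE 0.12, adjusted p = 0.512), Tlr12 12.2 to 18 CPM (median 15.6; log2 -0.014, SE 0.11) and Nlrp6 27.7 to 52.3 CPM (median 45.9; log2 -0.15, SE 0.11). Nlrp3 had 3.18 to 5.63 CPM (median 3.61; log2 0.038, SE 0.18), Casp1 3.03 to 6.44 CPM (median 3.80; log2 -0.26, SE 0.25) and Gsdmd 16.1 to 24.9 CPM (median 19.5; log2 -0.19, SE 0.11). Ripk3 had 4.87 to 7.31 CPM (median 6.03; log2 -0.23, SE 0.14) and Mlkl 6.30 to 9.73 CPM (median 8.16; log2 -0.15, SE 0.13). The adjusted p of these 8 genes was 0.512 for Tlr2, 0.963 for Tlr12, 0.558 for Nlrp6, 0.94 for Nlrp3, 0.658 for Casp1, 0.421 for Gsdmd, 0.439 for Ripk3 and 0.602 for Mlkl. Mcl1, at 267 to 320.3 CPM (median 288; log2 -0.088, adjusted p = 0.713), was called lower without vehicle replicate 6 (log2 -0.20, adjusted p = 0.0284).

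Of the 98 tested pathway genes outside the symbol pattern, 3 were called with zalfermin, where 1.81% of all genes were. Il1b was lower, 7.93 to 12.2 CPM (median 9.67) in vehicle and 3.91 to 8.26 CPM (median 4.44) in zalfermin libraries (log2 -1.02, SE 0.16, adjusted p = 0.00143), and zalfermin replicate 7 alone reached the vehicle range. Tnfaip3 (A20), a ubiquitin-editing brake on NF-kappaB signalling, was higher, 29 to 51.6 CPM (median 42.9) against 46.5 to 72 CPM (median 68.4; log2 0.62, SE 0.12, adjusted p = 0.00848). Bnip3, a mitochondrial BH3 protein of mitophagy, was higher, 48.6 to 59 CPM (median 54.3) against 58.3 to 81 CPM (median 68.2; log2 0.35, SE 0.078, adjusted p = 0.021), a call that ended without vehicle replicate 7 (adjusted p = 0.0529). Healthy libraries had 0.927, 0.977, 1.25 and 1.67 CPM of Il1b, 8.68, 8.98, 9.33 and 10.6 CPM of Tnfaip3 and 95.5, 104, 109 and 125 CPM of Bnip3, so that the zalfermin levels lay between healthy and vehicle for Il1b and Bnip3 by their medians and above both for Tnfaip3. Leaving out vehicle replicate 6 gave 5 called pathway genes, where 3.24% of all genes were called. Ly86 (log2 -0.47, adjusted p = 0.0157) and Zbp1 (log2 -0.64, adjusted p = 0.0424) were then newly called lower. DESeq2 called 6 of the 101 pathway genes it tested, and voom 15 of 98. Over all genes they called 1.88% of 31221 and 7.16% of 16026, and the DESeq2 total again includes genes with few reads.

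**Figure D5:**
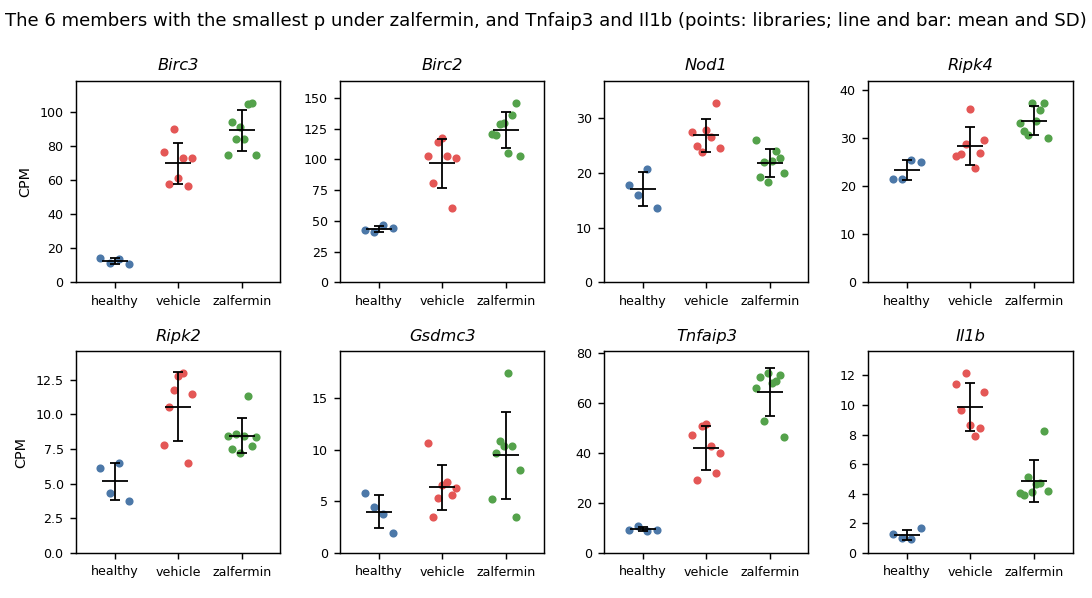
CPM by library of the 6 pattern genes with the smallest p between zalfermin and vehicle, with Tnfaip3 and Il1b, which were called; points are libraries (healthy n = 4, vehicle n = 7, zalfermin n = 8), lines and bars the mean and SD. Vehicle and zalfermin points overlap in each panel, and Il1b has a single zalfermin library, at 8.26 CPM, within the vehicle range of 7.93 to 12.2 CPM.

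No macrophage marker was called with zalfermin, and all 12 had negative log2 fold changes (median -0.21; sum 958 to 1415 CPM against 1160 to 1541). The 11 T and NK cell markers were likewise all negative and not called (median -0.59). Of 8 neutrophil markers, the 4 tested were negative and not called (median -0.64, lowest adjusted p = 0.358). Among the untested ones Retnlg had 15 reads over the vehicle and 50 over the zalfermin libraries, while Mmp8 had 77 and 41. Of the fibroblast markers Col1a1 was called lower and all 5 were negative (median -0.44). The 6 markers of the thick limb and distal tubule were all positive and not called (median 0.39; sum 4053 to 5405 CPM against 3462 to 5715), and the 8 of the proximal tubule were 4 positive and 4 negative. The 3 tested B cell markers and the 5 endothelium markers were all negative and not called (median -0.22 and -0.14). Of the 7 proliferation markers 6 were negative, and none was called (median -0.12). The part of these markers in the level of Il1b or of any other gene here was not tested.

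In zalfermin-treated obstructed against healthy kidneys, 49 of the 67 genes were called higher (73.1%) and 8 lower (11.9%), where 64.3% of all genes were called, 37.3% higher and 27% lower. This comparison shares its libraries with the other comparisons. For Tlr2 the log2 fold change from healthy was 3.88 with zalfermin and 3.71 with vehicle, for Tlr12 -1.78 and -1.77, for Nlrp6 -2.0 and -1.85, for Nlrp3 2.80 and 2.76, and for Birc3 2.83 and 2.48. Gsdmc2 and Gsdmc3, which were not called in vehicle kidneys with all libraries in the fit, were called higher here, by log2 1.02 (adjusted p = 0.00893) and 1.24 (adjusted p = 0.00362). For both genes the zalfermin and healthy ranges overlapped, and neither was called between zalfermin and vehicle. The calls of Casp8 and Bax ended under RLE scaling (adjusted p = 0.103 and 0.144) and DESeq2 (0.107 and 0.161), and that of Bax in the fit of only the 2 groups (0.0513). Leaving out 1 library also ended the call of Bax, without zalfermin replicates 3 and 5 (adjusted p = 0.052 and 0.0528) and healthy replicates 1 and 4 (0.101 and 0.136). The call of Nod1 ended under DESeq2 (0.0504), voom (0.051) and without healthy replicate 4 (0.0704). Those of Bcl2l13 and Fadd ended without a read filter (0.0803 and 0.0532) and without some of the healthy libraries. Under some other settings Tlr3, Ripk1, Bcl2l14 and Bcl2, not called here, were called higher, and Casp9 lower. Groups did not overlap for 41 genes that were higher (29.4% of all genes) and 7 that were lower (21.7%).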

How the data were processed

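RNA of whole mouse kidney was sequenced in 19 libraries (7 vehicle, 8 zalfermin, 4 healthy). The authors deposited read counts per gene, raw whole numbers; per the submitters' processing notes the aligner was STAR 2.7.0f and the genome GRCm38. How reads were counted (program, strand setting, annotation, filters) is not given in the sources used here. The reads of the 14 genes whose exons overlap a gene on the opposite strand may therefore be mixed.

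Genes were kept with filterByExpr (minimum count 10, minimum total 15), leaving 16026. A single quasi-likelihood model (edgeR 4.0.16, R 4.3.3, TMM factors) was fitted to the 19 libraries with group as its term and tested two-sided, adjusted by Benjamini-Hochberg over all tested genes, threshold 0.05. The scripts were tested on simulated data. Bax and Bcl2 reads (0.5 added) were compared as a log2 ratio per library. Alternatives were DESeq2 1.42.0, voom with quality weights (limma 3.58.1), scaling by RLE or the upper quartile, other filters, fits of 2 groups and each library left out.

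Members, role groups, pathway and marker lists were chosen with earlier results of these data known. Values are given for the smallest p and the largest called rise and fall of each role, 21 sentinel genes, the 6 smallest p under zalfermin and, per pathway list, the 2 smallest p with obstruction and any gene called under zalfermin. Shared sequence was the share of a gene's 50-base transcript windows found in another gene (GENCODE M21). No 2 libraries of a group were as close as sampling noise. Intervals cover counting error only. The values of 2 of the genes are not reported here, and these genes are not shown in the figures; counts over the whole set include them.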

Additional observations from a re-analysis of the deposited data

Results flagged for a closer look

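In 15 of 159 pairs of a named gene and a group, 1 library lay far from the rest of its group by a gap test that sets apart about 5% of groups by chance; in 6 of the 15 it was vehicle replicate 6. That library was low for Tlr4 (6.23 CPM), Casp12 (6.89 CPM), Bcl2 (15.5 CPM) and Mcl1 (178 CPM) and high for Tlr12 (21.6 CPM) and Fadd (28.8 CPM). Among the other vehicle libraries, replicate 3 was high for Pycard (33.9 CPM). Zalfermin replicate 8 was low for Tlr2 (32.9 CPM), replicate 6 was high for Gsdmd (24.9 CPM), Ripk2 (11.3 CPM) and Bcl2a1d (2.26 CPM), and replicate 7 was high for Il1b (8.26 CPM). In the healthy group, replicate 1 was high for Tlr8 (0.267 CPM) and low for Traf1 (1.96 CPM), and replicate 2 held the only Bcl2a1d read of the group (0.0888 CPM). Vehicle replicate 6 also had fewer genes detected and a lower mitochondrially encoded share than the other vehicle libraries, and whether these differences share a source was not tested.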

How the results depend on the processing

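No paired analysis was made, since no label links a sample of one group to a sample of another. The labels give no replicate numbers, and those used here follow the order in which the samples are listed. With obstruction, the counts of genes called higher (46), lower (8) and in the pathway lists (72) stayed within 1.5 times under each alternative run; leaving out 1 library at a time gave 45 to 48, 8 to 9 and 71 to 78. Against healthy kidneys, zalfermin gave 48 to 50 higher, 7 to 8 lower and 71 to 74 pathway genes in that way. Between zalfermin and vehicle, voom with quality weights called 2 genes higher and 3 lower and DESeq2 1 lower, where edgeR called 0; of the pathway genes DESeq2 called 6 and voom 15 against 3; leaving out 1 library gave 0 to 1, 0 to 1 and 2 to 5. The cause of these differences was not tested.

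Differences in the log2 ratio of Bax to Bcl2 changed sign when libraries were left out: vehicle minus healthy ran from -0.024 to 0.27, zalfermin minus vehicle from -0.26 to 0.034 and zalfermin minus healthy from -0.077 to 0.070. Ripk1 and Bcl2l1, not called with obstruction, changed sign as well. Ripk1 was -0.019 under RLE scaling and -0.013 with DESeq2. Bcl2l1 was 0.039 under upper-quartile scaling, 0.0077 without vehicle replicate 1, 0.019 without vehicle replicate 5, 0.020 without healthy replicate 2 and 0.044 without healthy replicate 4; leaving out 1 library at a time gave -0.098 (without vehicle replicate 6) to 0.044.

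Scaling moved the median log2 fold change of all genes from 0.09 (TMM) to 0.012 (RLE) and 0.14 (upper quartile) with obstruction. Few reads limit Tlr5, Tlr6, Tlr8, Tlr11, Nlrp1a, Nlrp1c-ps, Nlrp10, Gsdmc4 and the Bcl2a1 genes, among others, in healthy libraries, and 4 healthy libraries limit every comparison with them.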
